A study of Papio papio with 23 samples.

Results

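The 44 genes described here act in mitosis: mitotic kinases, cyclins, and proteins of the kinetochore, the spindle and cytokinesis. They were taken by gene name from the human Agilent arrays on which blood RNA of baboons (Papio papio) was measured, as 44 of 36337 gene names on the array, and each gene was represented by its brightest probe. Of the 44 genes, 33 had a probe that was well above background on at least 4 of the 23 arrays and were tested, among 21130 tested genes in all. Each array held RNA of peripheral whole blood from a male adult baboon, with a mean age of 8.1 ± 3.3 years given for the animals of the study as a whole. H2-3 day 2 and H2-3 day 1 (5 arrays each) came from baboons that later developed haematological acute radiation syndrome, the loss of blood cells after irradiation, of the category the titles write as H2-3°, sampled on the second and the first day after irradiation. H1-2 day 2 and H1-2 day 1 (4 arrays each) came from baboons of the less severe category, H1-2°. H0 (5 arrays) came from healthy baboons before irradiation, with no exposure. The irradiated animals were exposed to gamma rays of a 60Co source over the total body or part of it, at an equivalent whole body dose of 2.5 or 5 Gy. Neither dose nor field is given per animal, so the categories and not the doses were compared. The study looked for transcripts that change in blood in the first days and foretell the syndrome.

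Mitosis is driven by CDK1 with its cyclins and by the Aurora and Polo kinases. Kinetochores, protein assemblies on the centromeres, attach chromosomes to spindle microtubules. The spindle checkpoint holds back the anaphase-promoting complex, a ubiquitin ligase, until every chromosome is attached. The ligase then destroys securin and the B-type cyclins, so that chromatids separate and the cell divides. Most of these genes are transcribed late in the cell cycle and are near silent in resting cells. Most leukocytes in circulating blood are resting, and dividing cells there are few, such as activated lymphocytes, plasmablasts and immature precursors.

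A level is the log2 of a probe's signal after the 75th percentile of its array was subtracted, and that percentile was a signal of 80.9 to 156.4. An array had 41.4 to 51.3% of its probes well above background. The 5 genes shared by all leukocytes averaged 6.28 to 7.57 and the 11 erythroid genes 3.36 to 5.78 on the 23 arrays. The arrays were spread over 7 slides and 3 scan days. H2-3 and H1-2 arrays of the same day shared slides, except H2-3 day 1 baboon 1, which was on slide 3 with an H0 array. All day 2 arrays were scanned on scan day 2, and no other array was, so day 2 cannot be told apart from scan day against day 1 or H0. H0 baboons 1 and 2 were alone on slide 7 and scan day 3, while H0 baboons 3 to 5 were scanned on scan day 1 with the day 1 arrays. The H2-3 day 1 array of baboon 1 had the lowest 75th percentile (80.9) and the lowest share of probes well above background (41.4%) of all 23 arrays. Nothing in the labels ties the H0 animals to the irradiated ones, and p-values measure the spread between these animals' arrays.

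Each gene was read by a DNA probe of 60 bases designed on human transcripts, and where the baboon transcript differs from the probe, binding may be weaker. The probe sequences that carry the findings are given here from the scanner files, 5′ to 3′ in lower case with no base marked, with their genomic span on the human build hg19. The files give the span and the gene but no exon or untranslated region. A span longer than the probe means that the probe crosses a splice junction. BUB1 and CDK1 are shown because they were the members with the smallest adjusted p, and their probes cross a junction, at chr2:111395699-111397340 (minus strand) and chr10:62552004-62553650 (plus strand). CCNB1 and PLK1 are shown because their probes gave different answers, as described below. The CCNB1 probe printed is the dimmer of its pair and crosses a junction at chr5:68471363-68473123 (plus strand). PLK1 probe 1, which stands for the gene, spans chr16:23700970-23701212, and PLK1 probe 2 lies at chr16:23692251-23692310, both on the plus strand.
BUB1: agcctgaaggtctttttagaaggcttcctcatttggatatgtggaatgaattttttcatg
CDK1: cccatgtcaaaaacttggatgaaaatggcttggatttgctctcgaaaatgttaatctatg
CCNB1: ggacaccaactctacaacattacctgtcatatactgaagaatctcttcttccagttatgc
PLK1 probe 1: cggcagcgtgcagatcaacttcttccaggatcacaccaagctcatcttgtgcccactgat
PLK1 probe 2: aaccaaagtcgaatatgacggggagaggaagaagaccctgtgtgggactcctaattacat

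Fewer mitosis genes stood above background in H2-3 blood on day 1 than in any other group. Of the 44 genes, 14, 21, 22, 22 and 24 were well above background on the H2-3 day 1 arrays, against 27, 28, 30, 36 and 37 on the H0 arrays. These groups did not overlap. The count was 21 to 28 on H2-3 day 2 arrays, 27 to 34 on H1-2 day 2 arrays and 22 to 31 on H1-2 day 1 arrays, and these ranges meet that of H0. Over all arrays of a group, 57.3% of the gene readings were well above background in H2-3 day 2, 46.8% in H2-3 day 1, 66.5% in H1-2 day 2, 59.1% in H1-2 day 1 and 71.8% in H0. The same share over all 36337 genes was 53.1, 50.7, 52.7, 51 and 53.4% in the same order of groups. Of the 44 genes, 18 were at background on every H2-3 day 1 array, against 5 on every H0 array.

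The 11 genes that were not tested were at background nearly throughout. TOP2A, the topoisomerase that untangles sister chromatids, the kinesin KIF20A, the cytokinesis gene ANLN, the kinase NEK2 and the CDK1-activating phosphatase CDC25C were well above background on none of the 23 arrays. AURKB, the kinase of the chromosomal passenger complex, KIF15 and the kinase MELK reached it on 1 array, CEP55 on 2, and KIF4A and the checkpoint gene MAD2L1 on 3. Of the 11 such readings over these genes, 8 came from H0 arrays, 4 from baboon 3 and 4 from baboon 5.

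**Figure D1:**
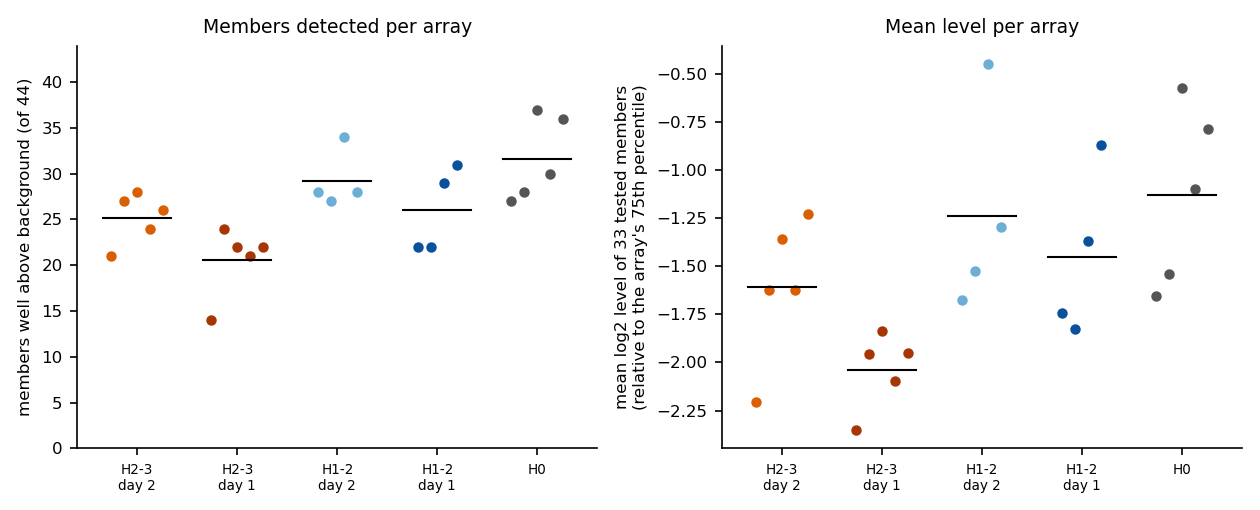
Left, number of the 44 mitosis genes well above background on each array; right, mean log2 level of the 33 tested genes on each array (relative to the array's 75th percentile). Points are arrays by group, lines are group means. The H2-3 day 1 arrays lie below every H0 array, with 14 to 24 genes detected against 27 to 37 in H0, and a mean level of -2.35 to -1.84 against -1.65 to -0.57. H2-3 day 2 baboon 1 lies among them, with 21 genes and a mean level of -2.20.

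In H2-3 blood on day 1, 15 of the 33 tested mitosis genes fell and 1 rose against H0 (limma, adjusted p under 0.05). Over all tested genes 13.5% fell and 15% rose in this comparison, 28.4% in all. The median log2 difference of the 33 genes was -0.92, against 0.14 over all tested genes, and 26 of the 33 differences were negative. All 5 arrays lay below all 5 H0 arrays for 11 of the 33 genes, where this held for 9.27% of all tested genes, and all lay above for 1, where this held for 9.57%. The mean level of the 33 genes was -2.04 ± 0.20 in H2-3 day 1 and -1.13 ± 0.47 in H0 (SD, n = 5 each). The genes tested are those with signal in at least some group, so a gene seen in H0 alone entered the test while one at background in H0 could not show a fall. With no filter, 13 of all 44 genes fell and 2 rose. No share of all genes is given for that fit, and the shares above are over the tested genes only. In whole blood, fewer cells of a type and less RNA per cell cannot be told apart.

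The counts differed with the batch. H0 baboons 1 and 2, scanned apart, had lower mean levels of the 33 genes (-1.65 and -1.54) than H0 baboons 3 to 5 (-0.57, -1.10 and -0.79). Within scan day 1, with 3 H0 arrays, 18 genes fell and the median was -1.43, and a fit with scan day as a block gave the same counts and median. The share of all tested genes that fell is not given for either fit. With slide as a block, where the difference is carried by slide 3 alone with 1 H2-3 day 1 and 1 H0 array, 7 of the 15 genes kept their call and the median was -1.52. On that slide all 15 genes were lower in the H2-3 day 1 array, which is the one with the lowest detection.

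**Figure D2:**
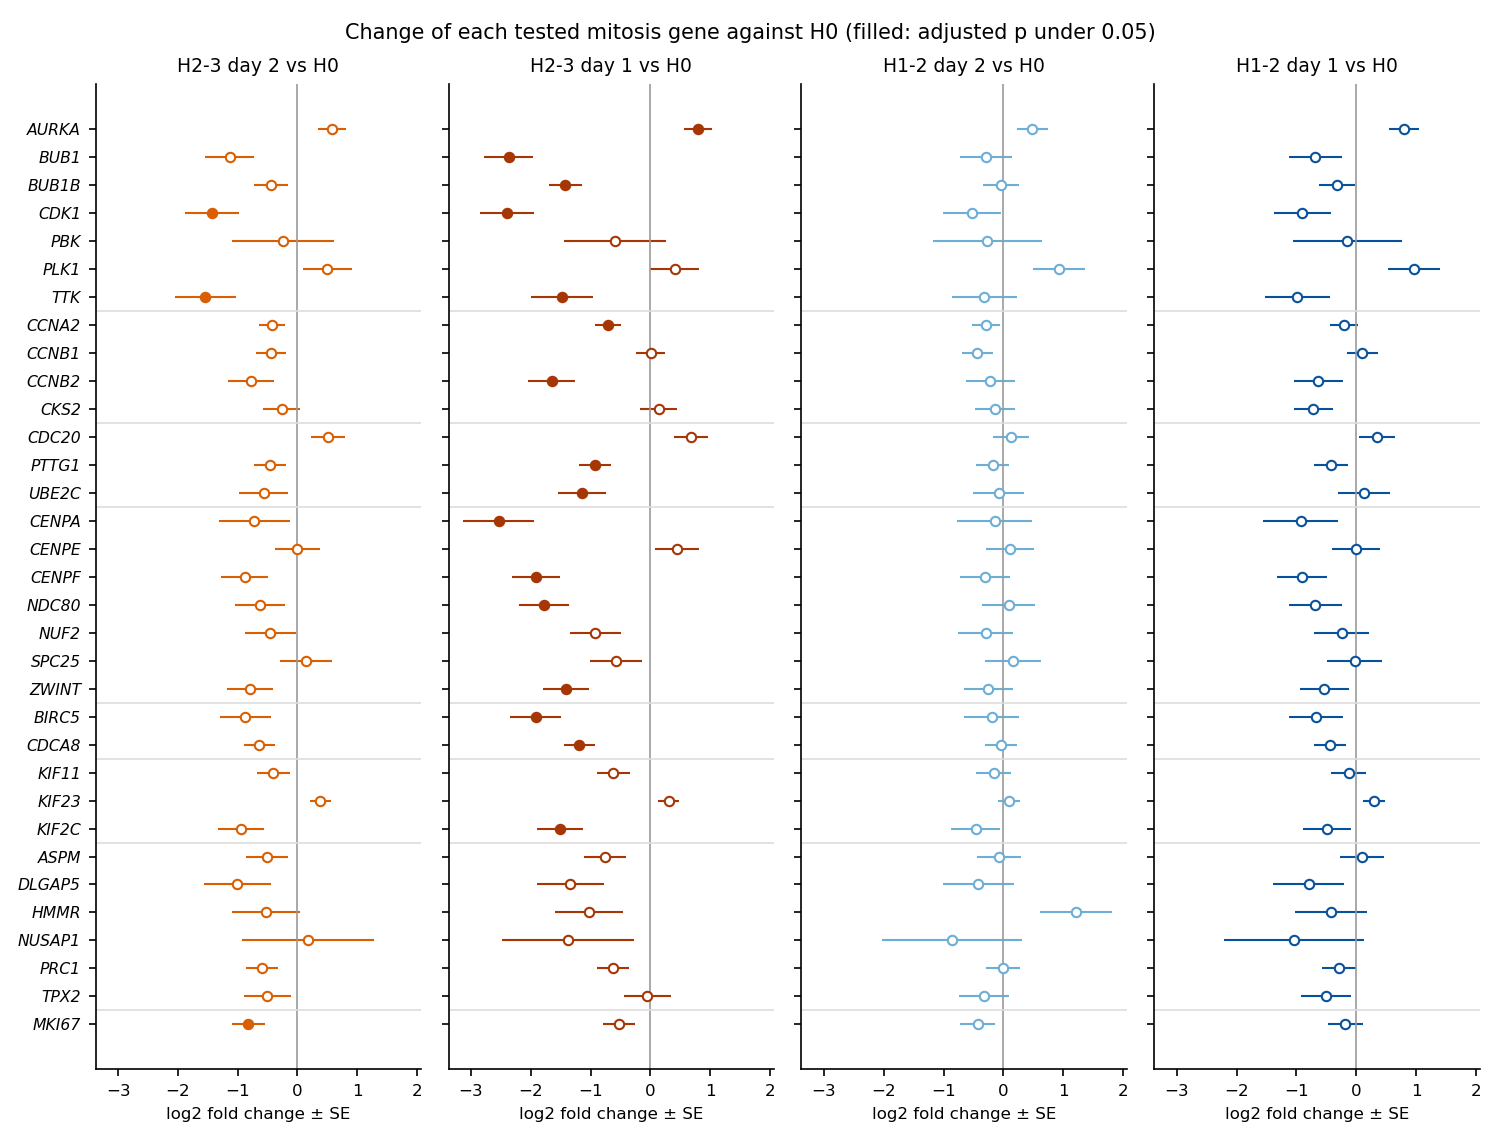
Log2 fold change against H0 with its standard error for each of the 33 tested mitosis genes, in H2-3 day 2, H2-3 day 1, H1-2 day 2 and H1-2 day 1; filled points passed the threshold (limma, adjusted p under 0.05). Grey lines part the genes by role. The filled points lie in H2-3 day 1, 15 below 0 and AURKA above it, and in H2-3 day 2, with CDK1, TTK and MKI67 below 0.

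Of the 7 tested kinases and checkpoint genes, 4 fell and 1 rose on day 1 in H2-3. BUB1, a checkpoint kinase on the kinetochore, had levels of -4.41, -4.75, -3.74, -4.32 and -2.82 on the H2-3 day 1 arrays, against -2.22, -1.91, -1.17, -1.33 and -1.55 in H0. It was at background on all 5 H2-3 day 1 arrays and above it on all H0 arrays, with no overlap, and fell at least 2.5-fold (adjusted p = 0.000351). CDK1, the kinase that drives entry into mitosis, stood at -4.39, -4.50, -3.28, -4.48 and -4.17 in H2-3 day 1, against -2.57, -2.27, -0.98, -1.75 and -1.26 in H0. It too was at background on every H2-3 day 1 array and above it in every H0 animal, and fell at least 2.38-fold (adjusted p = 0.000657). BUB1B, which holds the anaphase-promoting complex inactive until attachment is complete, measured -3.52, -2.10, -2.57, -3.34 and -3.64, against -1.79, -1.65, -1.20, -1.88 and -1.56 in H0. Only baboons 2 and 3 of H2-3 gave signal, the groups did not overlap, and the log2 change was -1.42 ± 0.28 (SE, adjusted p = 0.000995). TTK, the kinase that starts checkpoint signalling, was dim throughout, at -4.35, -3.16, -3.54, -4.42 and -4.58 in H2-3 day 1, against -2.50, -3.25, -2.09, -2.40 and -2.42 in H0. It was at background on all H2-3 day 1 arrays and on the lowest H0 array, with which 1 of them overlapped, and fell at least 1.35-fold (adjusted p = 0.0352). Its call was lost in 7 of the 10 fits that left out 1 array.

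AURKA and PLK1 are kinases of the centrosome and spindle. AURKA was at 0.48, 0.26, 0.19, 0.42 and 0.16 in H2-3 day 1, against -1.47, -0.58, -0.47, -0.06 and 0.08 in H0. All 5 H2-3 day 1 arrays lay above all H0 arrays and the log2 change was 0.80 ± 0.24 (adjusted p = 0.0168), the only rise among the 33 genes. H0 baboon 1 stood lowest, and without it the change was 0.56 and missed the threshold, as did the value of 0.45 within scan day 1. PLK1 measured -1.70, -2.08, -3.41, -1.93 and -2.91, against -4.25, -2.74, -2.25, -2.25 and -2.60 in H0 with probe 1, and the groups overlapped (0.41 ± 0.41, adjusted p = 0.499). PBK, a mitotic kinase, was well above background on 1 H2-3 day 1 array and 2 H0 arrays, with a difference of -0.59 ± 0.86.

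Among cyclins and CDK1 regulators, CCNB2 and CCNA2 fell. CCNB2, a B-type cyclin that activates CDK1, was at -1.78, -2.26, -1.41, -1.85 and -1.60 in H2-3 day 1, against -1.01, -0.70, 0.61, -0.07 and 0.53 in H0. Every array was above background in both groups, the groups did not overlap, and the fall was 3.15-fold (-1.65 ± 0.39, adjusted p = 0.00345). CCNA2, the cyclin of DNA synthesis and of the time before mitosis, measured -1.97, -2.34, -2.01, -1.83 and -1.65, against -1.65, -1.58, -0.97, -0.98 and -1.06 in H0. The groups touched at the highest H2-3 day 1 and lowest H0 array, and the fall was smaller, 1.64-fold (-0.71 ± 0.22, adjusted p = 0.0193). CKS2, a small protein that binds CDK1, differed by 0.14 ± 0.31.

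CCNB1, the main cyclin of mitotic entry, showed a fall with 1 of its probes and not with the other. The brighter probe, at chr5:68473872-68473931 and downstream of the printed one, read 0.44, 0.64, 0.68, 0.69 and 0.10 in H2-3 day 1, against 1.16, 0.70, 0.69, -0.02 and -0.01 in H0. These overlap fully, with a difference of 0.01 ± 0.25 (adjusted p = 0.989). The printed junction probe, present as 10 spots, read -2.51, -1.90, -2.05, -2.21 and -1.96 in H2-3 day 1, against -0.88, -0.54, -0.10, -0.56 and -0.39 in H0. Here all H2-3 day 1 arrays lay below all H0 arrays and the log2 change was -1.63 ± 0.24 (adjusted p = 0.000134 over the 27215 kept probes). PLK1 split likewise. Probe 2 read -2.88, -2.60, -2.78, -2.22 and -3.34, against -2.08, -1.80, -2.37, -1.70 and -1.65 in H0, a log2 change of -0.84 ± 0.29 (adjusted p = 0.0318 over probes). With 1 of 5 H2-3 day 1 arrays above the lowest H0 array, the groups overlapped slightly. Probe 1 stands for PLK1 by a mean of -2.29 over the 23 arrays, against -2.31 for probe 2, and in H0 probe 2 had the higher mean (-1.92, against -2.82), so the choice of probe decides the call.

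The other members with a pair of kept probes differed less. ZWINT changed by -1.42 with its brighter probe and by -0.62 ± 0.33 with the other, which was above background on 1 H2-3 day 1 array. MKI67 changed by -0.53 and -0.42, and KIF23 by 0.30 and 0.19, and none of these passed the threshold. With the mean of a gene's kept probes in place of the brightest, CCNB1 counted among the genes that fell (-0.81, adjusted p = 0.00453) and 16 of 33 fell. The cause of the difference between probes was not tested.

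**Figure D3:**
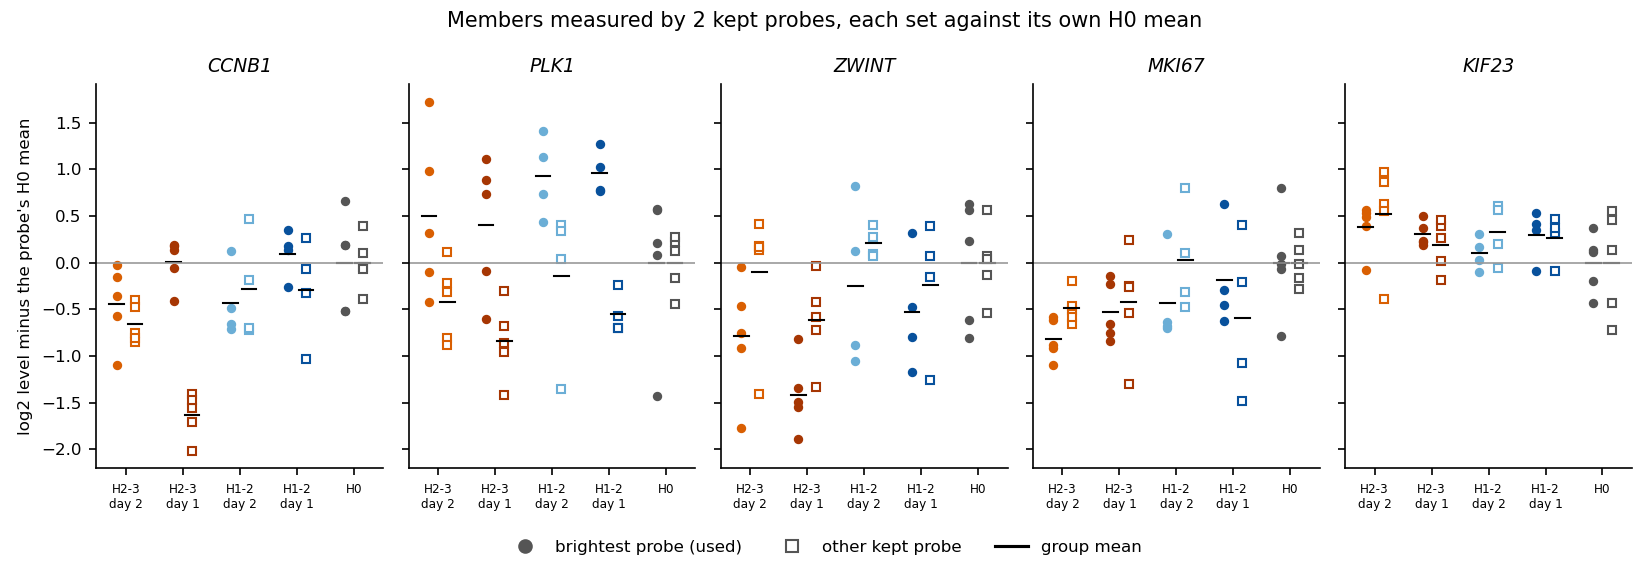
Log2 level minus the same probe's H0 mean on each array, for the 5 mitosis genes with 2 kept probes; filled circles are the probe that stands for the gene, open squares the other kept probe, lines are group means. In H2-3 day 1 the CCNB1 probes part, with mean differences of 0.01 and -1.63, and so do those of PLK1, with 0.41 and -0.84.

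Of the 3 tested genes of anaphase control, 2 fell. PTTG1, which encodes securin, the inhibitor of the protease that separates chromatids, was at 1.67, 1.57, 1.99, 1.77 and 1.07 in H2-3 day 1, against 2.38, 1.85, 2.77, 2.79 and 2.90 in H0. It fell 1.9-fold (-0.92 ± 0.26, adjusted p = 0.0114), with 4 of 5 arrays below every H0 array. UBE2C, the ubiquitin-conjugating enzyme of the anaphase-promoting complex, fell 2.21-fold (-1.14 ± 0.40, adjusted p = 0.0384). It ranged over -2.54 to 0.02 in H2-3 day 1, against -0.54 to 0.35 in H0, and lost its call in 7 of 10 fits that left out 1 array. CDC20, the activator of the complex, differed by 0.69 ± 0.28 the other way (adjusted p = 0.0752) and passed only within scan day 1 (0.98, adjusted p = 0.0139), in a fit of the compared groups alone and in that blocked on scan day.

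At the kinetochore, 4 of the 7 tested genes fell. CENPA, the histone variant that marks centromeres, read -4.69, -5.35, -4.98, -5.28 and -4.95 in H2-3 day 1, against -2.54, -3.45, -2.82, -2.32 and -1.45 in H0. It was at background on all H2-3 day 1 arrays and on 1 H0 array, without overlap, and fell at least 1.42-fold (adjusted p = 0.0032). CENPF, a large outer kinetochore protein, measured -3.57, -2.63, -2.42, -3.17 and -2.66, against -1.92, -1.45, -0.23, -0.89 and -0.40 in H0. With no overlap and 3 of 5 H2-3 day 1 arrays above background, its log2 change was -1.91 ± 0.40 (adjusted p = 0.00127). NDC80, which binds microtubules, was at -3.45, -2.35, -1.79, -2.74 and -2.58, against -1.39, -1.54, -0.46, -0.40 and -0.24 in H0. The groups lay apart (-1.78 ± 0.42, adjusted p = 0.0033). ZWINT, an adaptor for checkpoint proteins, stood at -2.83, -2.29, -2.48, -2.43 and -1.76, against -1.75, -1.56, -0.31, -0.71 and -0.38 in H0, and fell 2.67-fold with groups that came within 0.01 of each other (adjusted p = 0.00911).

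NUF2 and SPC25, partners of NDC80 in the same complex, differed by -0.92 ± 0.43 and -0.58 ± 0.44 and did not pass. CENPE, a kinetochore motor, differed by 0.45 ± 0.37. NUF2 was above background on 1 of 5 H2-3 day 1 arrays and 4 of 5 H0 arrays, whereas SPC25 and CENPE were above it on all arrays of both groups.

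Both tested genes of the chromosomal passenger complex, which corrects faulty attachments, fell. BIRC5, known as survivin, read -2.16, -2.09, -0.93, -1.98 and -1.23 in H2-3 day 1, against -0.27, -0.52, 0.98, 0.38 and 0.62 in H0. CDCA8, known as borealin, read -1.16, -1.17, -0.90, -1.46 and -1.28, against -0.23, -0.66, -0.01, 0.44 and 0.42. Both were above background on every array and did not overlap with H0, with falls of 3.78-fold for BIRC5 (adjusted p = 0.00221) and 2.28-fold for CDCA8 (adjusted p = 0.00168). AURKB, the kinase of the complex, was above background on 1 H0 array only.

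Of the kinesins, KIF2C, which takes microtubules apart at centromeres, fell. It was at -3.52, -2.76, -2.04, -1.56 and -2.16 in H2-3 day 1, against -1.29, -1.19, -0.53, -1.03 and -0.43 in H0, with no overlap (-1.52 ± 0.38, adjusted p = 0.00547). KIF11, the motor that pushes spindle poles apart, was at background on all H2-3 day 1 arrays and above it on 3 H0 arrays, which allows no fold (adjusted p = 0.0959). KIF23, a motor of the central spindle, was above background on every array and differed by 0.30 ± 0.18.

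None of the 6 tested spindle and cytokinesis genes passed on day 1 (limma; 3 of 6 at an unadjusted p under 0.05), although all 6 differences were negative. DLGAP5, a spindle protein, was at background on all H2-3 day 1 arrays and above it on 4 H0 arrays, at least 1.75-fold lower (adjusted p = 0.0781). PRC1, which bundles spindle microtubules, differed by -0.63 ± 0.27 and ASPM, a spindle pole protein, by -0.75 ± 0.35. NUSAP1 varied most of all members within H2-3 day 1, from -4.43 to 0.90, and its difference of -1.38 ± 1.10 was within that spread. HMMR was at background on all H2-3 day 1 arrays and above it on 3 H0 arrays. TPX2, which activates AURKA, differed by -0.05 ± 0.39. MKI67, the usual marker of proliferation, read -0.83, -0.65, -0.14, -0.22 and -0.74 in H2-3 day 1, against -0.06, -0.77, 0.81, 0.08 and -0.0015 in H0. These groups overlapped and the difference of -0.53 ± 0.27 missed the threshold (adjusted p = 0.163).

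**Figure D4:**
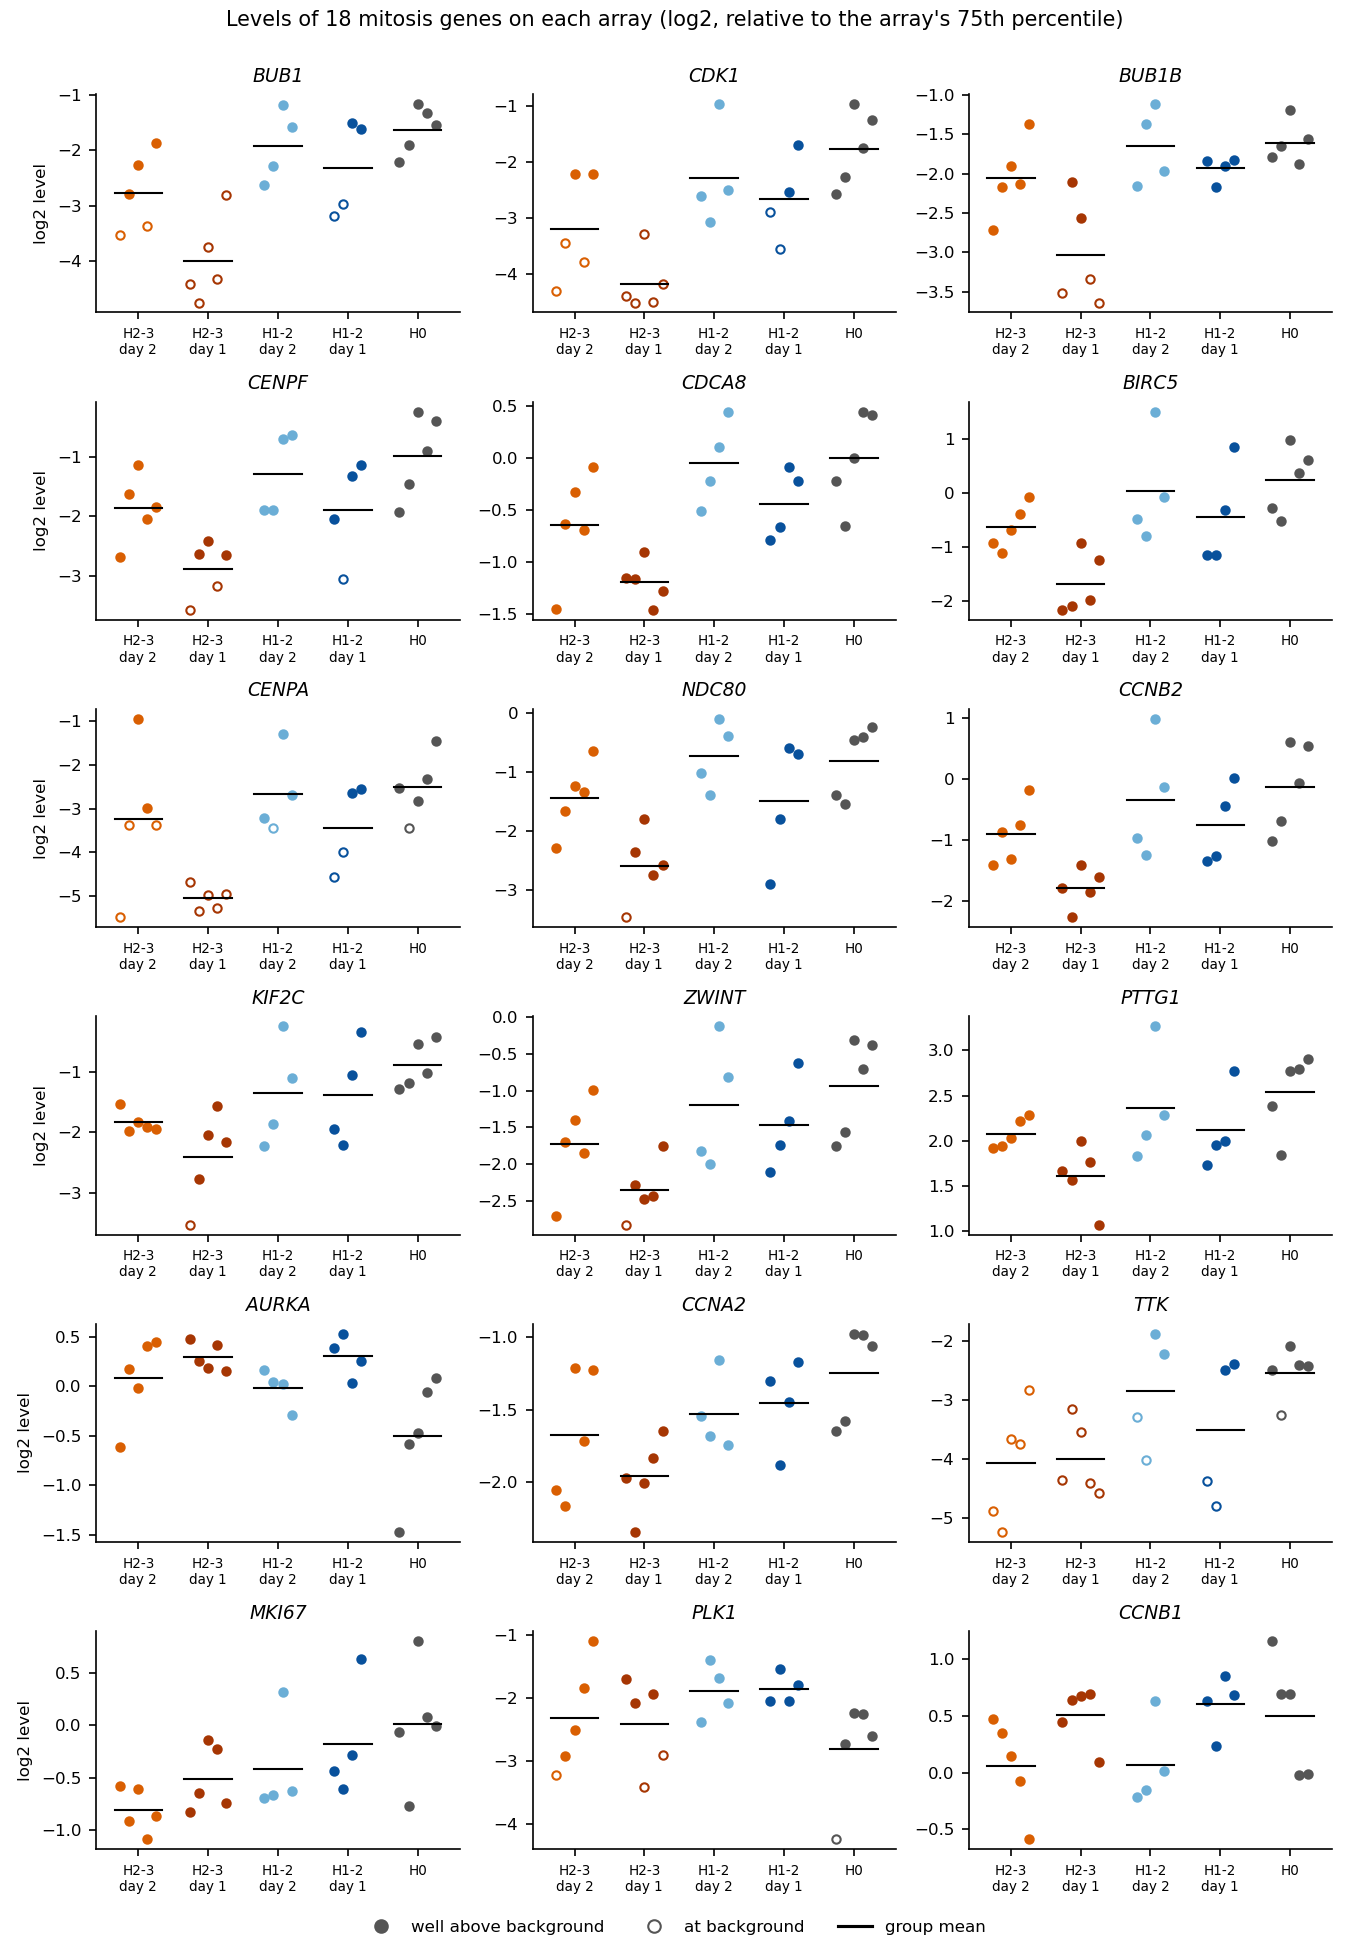
Log2 level (relative to the array's 75th percentile) of 18 mitosis genes on each of the 23 arrays, by group; filled points were well above background, open points were at background, lines are group means. BUB1, CDK1, CENPA and TTK show only open points in H2-3 day 1, while AURKA sits at 0.16 to 0.48 there against -1.47 to 0.08 in H0.

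On day 2 in H2-3, 3 of the 33 genes fell and 0 rose against H0 (limma; 8 lower and 2 higher at an unadjusted p under 0.05), where 4.48% of all tested genes fell, 10.3% rose and 14.8% changed in all. These shares over all tested genes are at the adjusted threshold only. The median difference of the 33 genes was -0.52, against -0.03 over all tested genes, and 27 of 33 were negative. CDK1 stood at -4.30, -3.43, -2.22, -3.79 and -2.22 in H2-3 day 2, with the H0 values as given above, and fell 2.69-fold (-1.43 ± 0.45, adjusted p = 0.0394). Only 2 of 5 arrays were above background, so this fold rests in part on readings at background. TTK was at -4.88, -5.24, -3.65, -3.75 and -2.83, at background on all 5 arrays, and fell at least 1.65-fold (adjusted p = 0.0475). MKI67 was at -0.58, -0.91, -0.60, -1.09 and -0.87, above background throughout, and fell 1.76-fold (adjusted p = 0.0482). Its other kept probe changed by -0.48 ± 0.31 and did not pass (limma, adjusted p = 0.273 over probes). That probe was above background on all arrays of both groups. With the baboon as a random block the call of MKI67 was lost (adjusted p = 0.053) and BUB1 passed (adjusted p = 0.0492). For CDK1, TTK and MKI67, 3, 4 and 3 of the 5 arrays lay below all H0 arrays. All 3 calls were near the threshold. They were lost without H0 baboon 3, 4 or 5 and without H2-3 day 2 baboon 2 or 4, CDK1 alone remained without H0 baboon 1 and MKI67 alone without H2-3 day 2 baboon 1. Without H0 baboon 2 the count was 4, and without H2-3 day 2 baboon 3 or 5 it was 2.

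Of the 15 genes that had fallen on day 1, CDK1 and TTK passed against H0 on day 2 as well. The difference from H0 was smaller on day 2 than on day 1 for the others and for CDK1, while TTK averaged -4.07 on H2-3 day 2, -4.01 on H2-3 day 1 and -2.53 in H0. BUB1 stood at -3.53, -2.80, -2.28, -3.37 and -1.87 on day 2, and 4 of 5 arrays lay below all H0 arrays (-1.13 ± 0.41, adjusted p = 0.0632). BUB1B was at -2.71, -2.17, -1.91, -2.13 and -1.38 (-0.44 ± 0.28), above background on all 5 arrays. CENPF stood at -2.68, -1.62, -1.14, -2.04 and -1.83, and NDC80 at -2.28, -1.65, -1.24, -1.34 and -0.64, both above background on every array. CENPA spread widely, at -5.50, -3.39, -0.94, -2.99 and -3.38, with the extremes beyond both ends of H0. ZWINT was at -2.71, -1.70, -1.40, -1.86 and -0.99, and CDCA8 at -1.45, -0.64, -0.33, -0.69 and -0.09. In both genes baboon 1 was lowest and baboon 5 highest.

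BIRC5 was at -0.93, -1.11, -0.69, -0.38 and -0.07 on day 2, and CCNB2 at -1.41, -0.87, -1.31, -0.75 and -0.18, both overlapping H0. KIF2C had an even level of -1.53, -1.97, -1.83, -1.90 and -1.95, below all H0 arrays on all 5 arrays, with a change of -0.94 ± 0.38 that missed the threshold (adjusted p = 0.0907). PRC1 was the other gene with no overlap (-0.60 ± 0.27, adjusted p = 0.116), where 2.96% of all tested genes had every array below H0. No member had every array above H0, as 5.66% of all tested genes did. PTTG1 read 1.93, 1.94, 2.03, 2.21 and 2.29, within the range of H0. CCNA2 read -2.05, -2.16, -1.21, -1.72 and -1.22, and AURKA -0.61, 0.17, -0.02, 0.41 and 0.45, which overlapped H0 as well. PLK1 read -3.23, -2.92, -2.50, -1.84 and -1.09 and CCNB1 0.48, 0.34, 0.14, -0.07 and -0.59 with the probes that stand for them.

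From day 1 to day 2 within H2-3, the median difference of the 33 genes was 0.46, against -0.03 over all tested genes, with 25 of 33 positive. No member passed in the fit without a term for the baboon (limma; 9 higher and 0 lower at an unadjusted p under 0.05), where 1.74% of all tested genes rose, 1.23% fell and 2.97% changed in all. Those shares are at the adjusted threshold, and none is given at the unadjusted one. Every day 2 array lay above every day 1 array for 1 member, CCNB2, and below for 0, where 2.72% of all tested genes lay above and 2.84% below. These counts use the probe that stands for each gene. The printed CCNB1 junction probe rose by 0.97 ± 0.24 (limma, adjusted p = 0.0417 over the kept probes). With it every day 2 array lay above every day 1 array. The brighter CCNB1 probe differed the other way, by -0.45 ± 0.25 (adjusted p = 0.261 over probes). With the baboon of the titles as a random block, 5 members were higher on day 2 than on day 1. BUB1B (0.98), NDC80 (1.15) and CENPF (1.03) had signal on some arrays of both days. BUB1, at background on all day 1 arrays, was at least 1.14-fold higher (adjusted p = 0.0199), and CENPA, at background on all day 1 and 3 of 5 day 2 arrays, allows no fold. With the baboon as a fixed term these were 3, BUB1, NDC80 and CENPF. Without the H2-3 day 2 array of baboon 1, 6 members were higher, CDCA8 in addition to those 5. The shares of all tested genes above belong to the fit without a term for the baboon. None is given for these other fits, so their counts cannot be set against the whole array. The day of sampling and the scan day cannot be told apart here.

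In H1-2 blood no mitosis gene passed against H0 on either day. On day 1, where 4.18% of all tested genes rose, 4.42% fell and 8.59% changed in all, 2 of the 33 members were higher and 2 lower at an unadjusted p under 0.05 (limma), and the median difference was -0.42, against 0.09 over all tested genes. On day 2 no gene at all passed (0% of 21130), with 1 member higher and 0 lower at an unadjusted p under 0.05 and a median of -0.18, against -0.01. On both days the shares over all tested genes are at the adjusted threshold, and none is given at the unadjusted one. Every H1-2 day 1 array lay below all H0 arrays for CKS2 and above them for PLK1, or 1 of 33 members each way, where 5.4% of all tested genes lay below and 4.99% above. PLK1 lay apart with probe 1 only (0.96 ± 0.43), while probe 2 differed the other way (-0.55 ± 0.31) and overlapped H0. On H1-2 day 2 the arrays lay wholly below or above H0 for 0 members, against 0.899% of all tested genes below and 0.823% above. AURKA was the nearest to the threshold on day 1. It stood at 0.17, 0.04, 0.02 and -0.29 on H1-2 day 2 arrays and 0.38, 0.53, 0.04 and 0.25 on H1-2 day 1 arrays, 0.80 ± 0.26 above H0 on day 1 (adjusted p = 0.0538) and 0.48 ± 0.26 on day 2. The day 1 value passed with quantile normalisation, with the deposited values, with another background correction, with a stricter filter and without H1-2 day 1 baboon 3.

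The levels of the genes that fell in H2-3 spanned a wide range in H1-2. BUB1 was at -2.62, -2.29, -1.18 and -1.58 on H1-2 day 2 and -3.18, -2.97, -1.51 and -1.61 on H1-2 day 1. CDK1 was at -2.61, -3.07, -0.97 and -2.50 on day 2 and -2.89, -3.55, -2.53 and -1.71 on day 1. In both genes baboons 3 and 4 were higher than baboons 1 and 2 on both days. BUB1B was even on day 1, at -1.84, -2.17, -1.90 and -1.83, and read -2.16, -1.38, -1.12 and -1.97 on day 2. TTK split into -3.29, -4.02, -1.87 and -2.21 on day 2 and -4.38, -4.81, -2.49 and -2.38 on day 1, with baboons 1 and 2 at background and baboons 3 and 4 above it on both days.

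CENPA, CENPF and NDC80 had that split as well. CENPA was at -3.23, -3.44, -1.28 and -2.68 on H1-2 day 2 and -4.57, -4.0, -2.65 and -2.56 on H1-2 day 1. CENPF was at -1.90, -1.89, -0.70 and -0.63 on day 2 and -2.04, -3.05, -1.32 and -1.14 on day 1. NDC80 was at -1.01, -1.38, -0.10 and -0.39 on day 2 and -2.90, -1.80, -0.58 and -0.69 on day 1. Baboons 3 and 4 were above baboons 1 and 2 in each of these genes on both days. ZWINT read -1.83, -2.00, -0.12 and -0.81 on day 2 and -2.11, -1.74, -1.42 and -0.63 on day 1, KIF2C -2.21, -1.85, -0.25 and -1.10 on day 2 and -1.94, -2.20, -1.05 and -0.34 on day 1, with the same order of the pairs.

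The passenger genes and CCNB2 showed it too. BIRC5 stood at -0.48, -0.79, 1.52 and -0.08 on H1-2 day 2 and -1.15, -1.14, -0.32 and 0.85 on H1-2 day 1. CDCA8 stood at -0.51, -0.22, 0.10 and 0.44 on day 2 and -0.79, -0.67, -0.09 and -0.22 on day 1. CCNB2 read -0.97, -1.25, 0.98 and -0.13 on day 2 and -1.34, -1.27, -0.44 and 0.02 on day 1. In these 3 genes baboons 3 and 4 were higher on both days. PTTG1 read 1.83, 2.07, 3.27 and 2.28 on day 2 and 1.73, 1.96, 2.00 and 2.77 on day 1. MKI67 was at -0.69, -0.67, 0.32 and -0.63 on day 2 and -0.44, -0.61, -0.28 and 0.63 on day 1. CCNB1, with its brighter probe, was at -0.21, -0.16, 0.63 and 0.02 on day 2 and 0.63, 0.24, 0.85 and 0.68 on day 1. These genes had the same order of the pairs, by small margins. CCNA2, at -1.54, -1.68, -1.16 and -1.74 on day 2 and -1.30, -1.88, -1.45 and -1.17 on day 1, did not have it. Nor did PLK1, at -2.38, -1.40, -1.68 and -2.08 on day 2 and -2.04, -1.54, -2.04 and -1.79 on day 1. H1-2 baboons 1 and 2 shared a slide on each day, as did baboons 3 and 4, so animal and slide cannot be told apart within H1-2. Cell markers split the same way. The B cell markers averaged 1.18, 1.73, 3.98 and 3.91 in baboons 1 to 4 on H1-2 day 2 and 2.41, 1.52, 3.96 and 3.60 on H1-2 day 1. The immature neutrophil markers ran the other way, at 0.45, 0.47, -1.42 and -1.29 on day 2 and 0.88, 0.80, -0.21 and -0.61 on day 1. The erythroid markers were at 3.54, 3.36, 5.78 and 5.03 on day 2 and 4.48, 4.20, 4.93 and 5.06 on day 1. Their part in the split was not tested.

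Between the categories no member and no gene of the array passed on either day (limma; 0% of 21130 tested genes). On day 1 the median difference of the 33 genes, H2-3 minus H1-2, was -0.55, against 0.04 over all tested genes, with 28 of 33 negative, and 14 were lower and 1 higher at an unadjusted p under 0.05. The share of all tested genes at that unadjusted threshold is not given, so these counts cannot be set against the 0%. BUB1, at background on all H2-3 day 1 and 2 of 4 H1-2 day 1 arrays, was at least 1.56-fold lower and did not pass (adjusted p = 0.206), and BUB1B differed by -1.10 ± 0.30 (adjusted p = 0.264). All H2-3 arrays lay below all H1-2 arrays for CCNB2, CDCA8 and CENPA (the last at background on every H2-3 day 1 array), or 3 of 33 members, where 1.07% of all tested genes did, and above them for CKS2, where 0.989% did. The probe that stands for each gene was counted. With the printed CCNB1 junction probe every H2-3 array also lay below every H1-2 array (-1.34 ± 0.26, limma, adjusted p = 0.129 over probes). The brighter CCNB1 probe differed by -0.09 ± 0.26. Categories shared slides 1 and 2 on day 1, and the median was -0.24 within slide 1 and -0.97 within slide 2, with 2 arrays of each category on each. H2-3 day 1 baboon 1, on slide 3, shared no slide with H1-2.

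On day 2 the median difference between categories was -0.43, against 0.02 over all tested genes, with 28 of 33 negative, 4 lower and 0 higher at an unadjusted p under 0.05. Here too no share of all tested genes is given at the unadjusted threshold. HMMR, a spindle assembly protein, was at background on all H2-3 day 2 and 2 of 4 H1-2 day 2 arrays and at least 1.84-fold lower without passing (adjusted p = 0.508). It was the member with no overlap, much of it between values at background, where 0.771% of all tested genes lay wholly below and 0.568% wholly above. The median was -0.06 within slide 4 and -0.70 within slide 5. The change from day 1 to day 2 did not differ between the categories for any member (limma, 0% of tested genes; 0 higher and 1 lower at an unadjusted p under 0.05), and from day 1 to day 2 within H1-2 no member passed either (0% of tested genes; 1 higher and 0 lower at an unadjusted p under 0.05). In H1-2 0 members had day 2 arrays wholly above or below those of day 1, against 4.92% of all tested genes above and 5.37% below.

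Other genes of the same processes were looked at through lists that hold none of the 44 members. On day 1 in H2-3, 7 of 18 tested kinetochore and centromere genes fell and 1 rose. CASC5, the scaffold that recruits BUB1, changed by -2.38 ± 0.38 (adjusted p = 0.000197) with 2 of 5 H2-3 day 1 arrays above background, and SPC24, a partner of NDC80, rose by 1.16 ± 0.32 (adjusted p = 0.0102). Of 7 further checkpoint genes 2 fell, BUB3, the partner of BUB1 (-1.49 ± 0.23, adjusted p = 0.000139), and ZW10 (-0.65 ± 0.22). Of 17 genes of the anaphase-promoting complex and its regulators 4 fell and 1 rose. CDC23, a subunit, fell (-1.37 ± 0.27, adjusted p = 0.00102), and ESPL1, the separase that securin inhibits, rose (1.17 ± 0.21, adjusted p = 0.000386). Of 16 condensin and cohesin genes 6 fell, led by the condensin subunit NCAPD2 (-1.27 ± 0.20). The shares of all tested genes given above, 13.5% lower and 15% higher, are the measure for these counts.

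Of 17 other mitotic kinesins and cytokinesis genes 7 fell and 1 rose. KIF22, a motor on chromosome arms, fell by 1.26 ± 0.18 on the log2 scale (adjusted p = 0.0001), and CKAP5, which makes microtubules grow, rose by 0.59 ± 0.15. Of 30 genes that control mitotic entry 6 fell and 2 rose, with CDC25B, a phosphatase that activates CDK1, at -2.47 ± 0.43 (adjusted p = 0.000347). DNA replication genes had the larger share, 14 of 29 lower and 1 higher. GINS1, a helicase subunit, fell (-1.45 ± 0.22, adjusted p = 0.000143), whereas TYMS, the thymidylate synthase, rose (2.35 ± 0.45, adjusted p = 0.000742). Of 12 cell cycle inhibitors and p53 targets 7 rose and 1 fell. CDKN1A, the p21 inhibitor of cyclin-dependent kinases, rose by 2.91 ± 0.52 (adjusted p = 0.000456), above background on 5 of 5 H2-3 day 1 arrays and 1 of 5 H0 arrays. The medians over these 8 lists ran from -0.92, for kinesins and cytokinesis, to 0.84, for inhibitors and p53 targets. GTSE1, which fell, is in both of those lists.

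Markers of the blood's cell types moved in the same comparison, where 13.5% of all tested genes fell and 15% rose. In H2-3 on day 1, 9 of 10 T cell markers fell (median -2.41), with CD3G at -3.25 ± 0.39, as did 9 of 10 NK cell markers (median -2.45) and 6 of 8 B cell markers (median -2.77). Of 5 genes shared by all leukocytes 4 rose (median 0.82), and their mean ranged over 7.19 to 7.57 in H2-3 day 1, against 6.28 to 6.83 in H0. Among markers of mature neutrophils 8 of 9 rose (median 1.78) and of 9 monocyte markers 8 rose (median 1.40). Among other tested markers, 3 of 8 plasma cell markers fell and 1 rose, and 4 of 12 immature neutrophil markers rose. For erythroid precursors 0 of 11 and for haematopoietic progenitors 0 of 5 markers passed (limma). At an unadjusted p under 0.05, 1 erythroid marker was lower and 2 progenitor markers were higher. The mean level of the 10 T cell markers ranged over -0.14 to 2.20 in H2-3 day 1, against 2.85 to 3.77 in H0, and that of the 8 B cell markers over 0.14 to 1.75, against 3.00 to 3.71. These groups did not overlap. The mean of the 8 plasma cell markers did not overlap either, at 0.99 to 2.16 in H2-3 day 1, against 2.50 to 2.84 in H0. That of the 11 erythroid markers ranged over 3.88 to 4.88, against 3.88 to 5.15. Of the untested markers PAX5, DEFA4, PROM1, MYCN and ERG were above background on no array. The part of any of these cell types in the falls of the mitosis genes was not tested.

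On day 2 in H2-3, 2 of 10 T cell, 2 of 10 NK cell and 7 of 8 B cell markers were lower than in H0, 6 of 9 neutrophil and 6 of 9 monocyte markers were higher, and the mitosis genes stood at a mean of -1.61 ± 0.38. From day 1 to day 2 within H2-3, 7 of 10 T cell markers rose (median 1.77), against 0 of 8 B cell markers (limma; 1 higher and 1 lower at an unadjusted p under 0.05). On H1-2 day 1, 4 of 10 T cell and 7 of 10 NK cell markers fell against H0, with medians of -1.53 and -1.94, and 0 of 8 B cell markers passed (median -0.57; limma, 0 at an unadjusted p under 0.05). The mitosis genes, none of which passed there, had a mean of -1.45 ± 0.44. Over all tested genes 4.48% fell and 10.3% rose in H2-3 day 2 against H0. In H1-2 day 1 against H0 4.42% fell and 4.18% rose. From day 1 to day 2 within H2-3 1.74% rose and 1.23% fell. These shares are at the adjusted threshold.

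**Figure D5:**
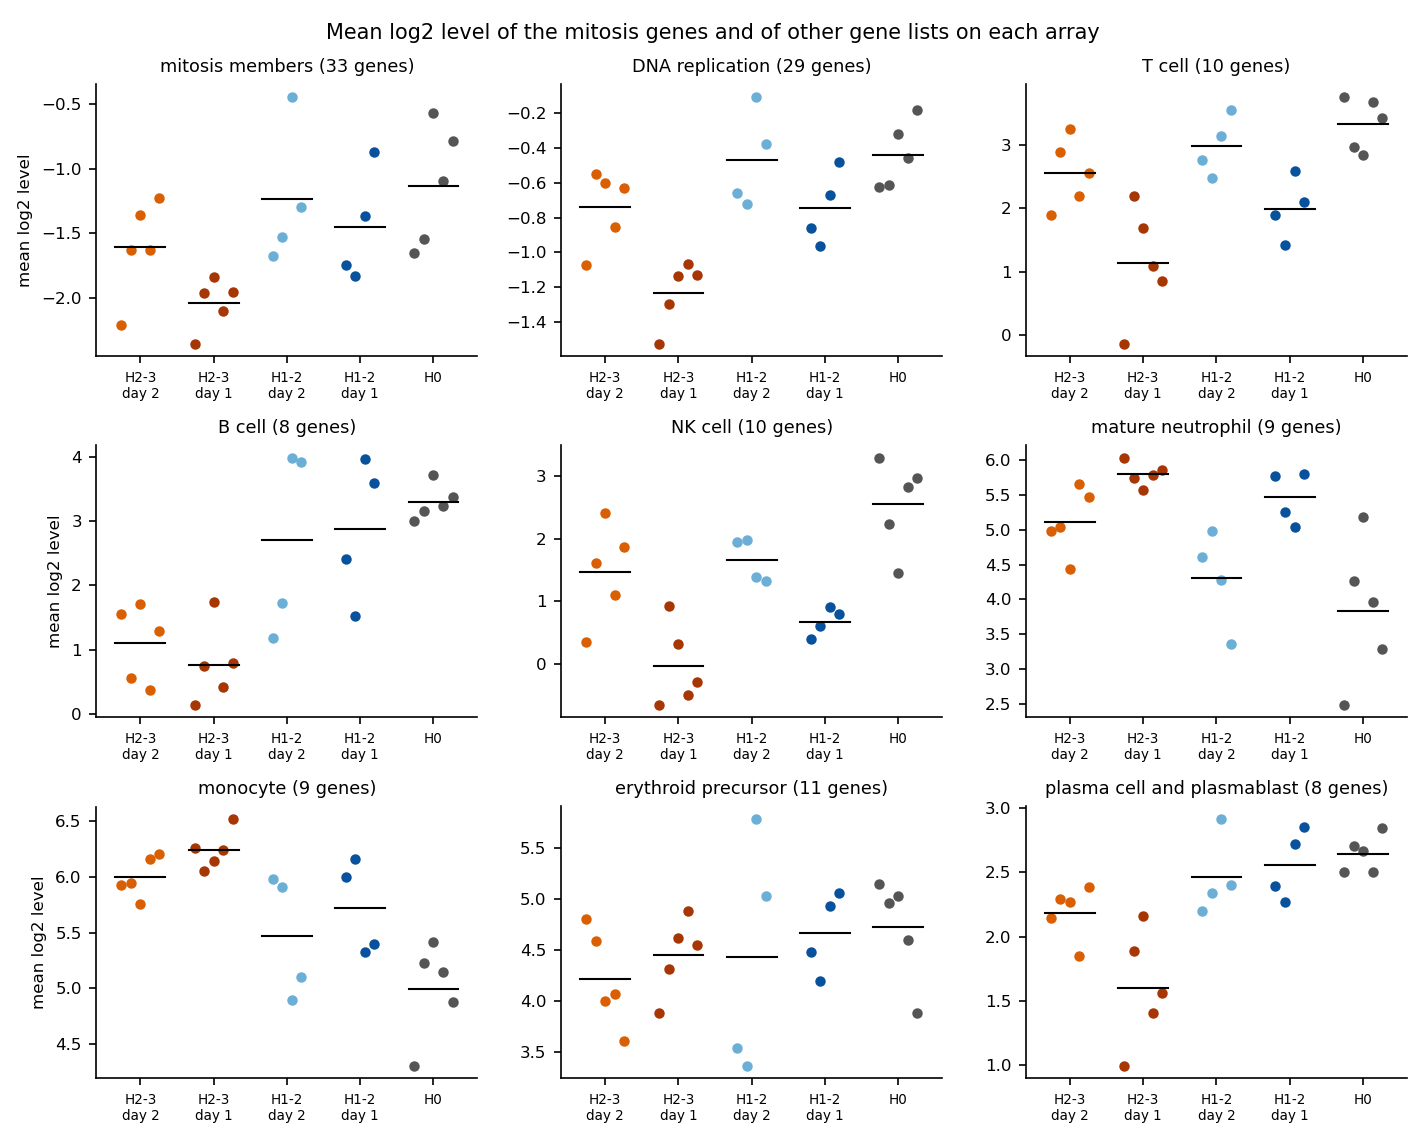
Mean log2 level (relative to the array's 75th percentile) of the 33 tested mitosis genes and of 8 other gene lists on each array, by group; points are arrays and lines are group means. In H2-3 day 1 the mitosis, DNA replication, T cell, B cell, NK cell and plasma cell means lie below every H0 array. The mature neutrophil and monocyte means lie above every H0 array, and the erythroid means overlap.

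In every group but H2-3 day 1, many of the mitosis genes were highest or lowest on the same array. H2-3 day 2 baboon 1 was the lowest of 5 arrays for 22 of the 33 genes, and its mean level was -2.20 against -1.63 to -1.23 on the other 4. H1-2 day 2 baboon 3 was the highest of 4 arrays for 25 genes and the lowest for 0, at a mean of -0.45 against -1.68 to -1.30. H1-2 day 1 baboon 4 was the highest for 21 genes and the lowest for 0. H0 baboon 3 was the highest of 5 for 19 genes, while H0 baboons 1 and 2 were the lowest for 15 and 13. In H2-3 day 1 no array held so many extremes, with at most 9 highest and 11 lowest places. H1-2 day 2 baboon 3 also had the highest mean of the erythroid markers (5.78), of the plasma cell markers (2.91) and of the B cell markers (3.98) over all 23 arrays, and H0 baboon 3 the highest mean of mature neutrophil markers in H0 (5.19). Their part in these levels was not tested.

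The median spread of the members within a group was wider than the median over all tested genes. The median standard deviation of the 33 genes was 0.49 in H2-3 day 2, 0.47 in H2-3 day 1, 0.77 in H1-2 day 2, 0.66 in H1-2 day 1 and 0.56 in H0, against 0.43, 0.33, 0.43, 0.35 and 0.44 over all tested genes in the same order. NUSAP1 had the largest standard deviation in 4 of the 5 groups, with 2.45 in H2-3 day 1 and 1.98 in H0, and PBK in H1-2 day 2 with 1.99. PBK was above background on 1 of the 4 arrays there. The members were dim, with group means of the 33 genes from -2.04 to -1.13, and many of their readings lay at background. No comparison with genes of the same level was made, and the part of readings at background in the spread was not tested. KIF23 varied least in H2-3 day 1 and H1-2 day 2, PRC1 in H2-3 day 2, and BUB1B in H1-2 day 1 and H0 (0.16 and 0.26).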

How the data were processed

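Blood RNA (PAXgene tubes of 2.5 ml, 100 ng of RNA labelled with Cy3) of 23 samples was hybridised to 1-colour human Agilent arrays, per the labels' protocols. The deposited scanner files hold intensity values from Agilent Feature Extraction 10.7.3.1, per the file headers, and the processed signal used here is already background-corrected there. The authors also deposited a table of log2 values with its scale and centring unstated. It had a median of 4.70 on every array, correlated at r of 0.998 to 1.000 with the array's own log2 signal over 39637 of 39726 matched rows, and was used as an alternative.

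Spots of a probe were averaged as log2 values and the array's 75th percentile was subtracted. Probes well above background on at least 4 arrays were kept (27215 of 50599), the brightest kept probe stood for a gene, and 21130 genes were fitted in limma 3.58.1 (R 4.3.3) with 5 group means, moderated two-sided tests and Benjamini-Hochberg adjustment at 0.05. Where every array of the dimmer group was at background, "at least" folds set it at the lowest signal of a probe well above background. Counts at an unadjusted p under 0.05 are given for members and lists only, so no share of all tested genes stands beside them. The number of arrays limits the precision. Tested on simulated data for H2-3 day 1 against H0 over 21130 genes, the fit recovered 37 of 100 genes changed by a log2 of 1 and 85 of 100 changed by 2, with 7 false calls. Only 100 genes were changed at each size there, whereas 28.4% of all tested genes were called in the real comparison. The adjusted threshold is stricter when fewer genes change, so these recoveries do not give the power of the real comparison.

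The titles give the same baboon number on both days within a category, taken here as the same animal. Deviations from the group means of same-numbered arrays correlated at 0.05 to 0.44 in H2-3 and 0.06 to 0.39 in H1-2, and an array's best match had its own number for 4 of 5 baboons of H2-3 and 0 of 4 of H1-2. Members named with values for every array were the 15 with the smallest adjusted p and MKI67, PLK1 and CCNB1. The members and gene lists were chosen with earlier results of these data known. Alternatives covered background correction, normalisation, filters, probe choice, baboon, slide and scan day as blocks, and each array left out.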

Additional observations from a re-analysis of the deposited data

Results flagged for a closer look

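Of 90 sets of arrays (a gene in a group) examined for an array far from the others of its group, 3 had one, and chance gives about 5%. CDK1 in H2-3 day 1 stood at -3.28 in baboon 3, against -4.50 to -4.17 on the other 4 arrays, with all 5 at background. MKI67 in H1-2 day 2 stood at 0.32 in baboon 3, against -0.69 to -0.63 on the other 3 arrays, and this array was the highest of its group for 25 of the 33 tested genes. PLK1 in H0 stood at -4.25 in baboon 1, where it was at background, against -2.74 to -2.25 on the other 4 arrays.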

How the results depend on the processing

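No gene that passed in the report changed direction under any setting. The median of the 33 genes changed sign in 2 comparisons in which none passed: for H1-2 day 2 against H0 it ran from -0.49 to 0.02 (0.02 without H1-2 day 2 baboon 2) and for day 2 against day 1 in H1-2 from -0.08 to 0.42 (-0.08 without H1-2 day 2 baboon 3). CCNB1, at 0.01 in H2-3 day 1, fell by 0.81 with the mean of its probes. Against H0, the genes that fell in H2-3 on day 1 numbered 11 to 18 under the other settings and 7 with slide as a block. Those that rose there, 1 in the report, numbered 0 with slide as a block and when the percentile was taken over probes detected on every array, and 2 with no filter (adding CDC25C, at background on every array) and with only the groups compared (adding CDC20). Those that fell on day 2 in H2-3, 3 in the report, numbered 0 with normexp, quantile normalisation, the deposited table and no filter, and 5 with the percentile of detected probes. In H1-2 on day 1, 1 gene, AURKA, rose with normexp, quantile normalisation, the deposited table and a minimum of 12 arrays. Higher on day 2 than on day 1 in H2-3 were 1 with quantile normalisation, 5 with the replicate block as a random term and 3 with it as a fixed term. The random replicate block also ended the call of MKI67 on day 2 against H0 (adjusted p = 0.053 in limma) and gained BUB1 (adjusted p = 0.0492), and changed no other call. Between categories on day 1, 3 genes (CENPA, NDC80 and TTK) were lower within slide 2. With each array left out in turn, the genes lower in H2-3 day 1 numbered 13 to 16 and higher 0 to 1, in H2-3 day 2 lower 0 to 4 and higher 0 to 2, in H1-2 day 1 higher 0 to 1, and higher on day 2 than on day 1 in H2-3 0 to 6. Slide and scan day as blocks gave no value for day 2 against H0 or day 1. The cause of these differences was not tested. Shares of all tested genes are not given for the other settings, so their counts of members have no measure beside them. Signal near background limits BUB1, CDK1, CENPA and TTK to lower bounds in H2-3 day 1, and TTK in H2-3 day 2 as well.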
